A study of Homo sapiens with 12 samples.

Results

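Plexins and semaphorins were followed through the chemical removal of SWI/SNF chromatin remodelling ATPases in Z138, a human mantle cell lymphoma line. The genes were PLXNA1, PLXNA3, PLXNB1, PLXNB2, PLXNC1 and PLXND1, which are 6 plexin receptors, and SEMA4A, SEMA4B, SEMA4D and SEMA7A, which are 4 semaphorin ligands. They were taken by gene symbol, with the entry of the highest mean level where a symbol repeated, and are 10 of the 20318 gene entries in the table. All 10 were among the 12721 entries tested, which had at least 1 CPM (counts scaled to equal library totals) in at least 3 libraries. SEMA4A passed that filter through its 5 DMSO libraries alone, so its being lower in AU-15330 is partly set by the filter, and SEMA7A passed through 3 libraries at 24 h.

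The cells, of wild-type genotype per the labels, had been kept in 0.5 µM AU-15330 for 24 h or 8 h, and the comparison cells had been kept in the vehicle DMSO for the same times. AU-15330 is a proteolysis-targeting chimera, a molecule that marks SMARCA2, SMARCA4 and PBRM1 for destruction by the proteasome. RNA was sequenced in 3 libraries of AU-15330 at 24 h, 3 of DMSO at 24 h, 3 of AU-15330 at 8 h and 2 of DMSO at 8 h. The labels list 3 DMSO samples at 8 h, but identical columns stood for a pair of them; these were counted once, and that library carries no replicate number here. Nothing in the labels says that replicates were separate cultures, so p-values measure the spread between these libraries, which may be technical. Each time is also its own batch in the labels, so time and batch cannot be told apart.

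Semaphorins are secreted, membrane-bound or lipid-anchored signals, and plexins are the large transmembrane receptors that read them. The plexin cytoplasmic part holds a GTPase-activating domain for small Ras-family GTPases, through which binding of a semaphorin alters integrin adhesion and the actin skeleton. In the immune system, class 4 semaphorins and SEMA7A act in contacts between lymphocytes and antigen-presenting cells, and SEMA4D, also called CD100, binds CD72 on B cells.

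The start regions of 3 of these genes are shown because their transcripts behaved differently: PLXND1 and SEMA4D fell at both times, and PLXNB2 fell at 8 h alone. Each has a single start in the RefSeq promoter table for GRCh38.p14, and each window runs from 250 bases before to 50 bases after it, on the minus strand. PLXND1 lies at chr3:129606627-129606926, SEMA4D at chr9:89495607-89495906 and PLXNB2 at chr22:50301620-50301919. The PLXND1 window spans the upstream end of its annotated gene, at 129606818. The windows of SEMA4D and PLXNB2 lie inside their annotated genes, whose upstream ends are at 89498130 and 50307627. These windows may thus be internal or alternative starts, so their base content is not a like-for-like comparison with PLXND1. Which starts these cells use was not tested. Capitals mark matches to GGGCGG, the GC box, or CACGTG, an E box, on either strand, with overlapping matches counted.
PLXND1: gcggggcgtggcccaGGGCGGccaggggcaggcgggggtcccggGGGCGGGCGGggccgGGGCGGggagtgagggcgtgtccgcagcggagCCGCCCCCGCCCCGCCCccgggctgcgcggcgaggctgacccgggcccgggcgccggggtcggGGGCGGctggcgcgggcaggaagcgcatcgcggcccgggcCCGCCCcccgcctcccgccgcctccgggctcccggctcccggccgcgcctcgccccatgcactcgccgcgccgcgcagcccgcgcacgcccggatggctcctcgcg
SEMA4D: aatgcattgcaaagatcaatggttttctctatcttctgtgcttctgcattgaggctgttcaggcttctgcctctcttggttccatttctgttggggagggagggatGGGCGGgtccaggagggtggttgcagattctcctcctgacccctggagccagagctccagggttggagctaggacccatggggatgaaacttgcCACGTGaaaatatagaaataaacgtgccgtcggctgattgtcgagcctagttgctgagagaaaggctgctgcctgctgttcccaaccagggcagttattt
PLXNB2: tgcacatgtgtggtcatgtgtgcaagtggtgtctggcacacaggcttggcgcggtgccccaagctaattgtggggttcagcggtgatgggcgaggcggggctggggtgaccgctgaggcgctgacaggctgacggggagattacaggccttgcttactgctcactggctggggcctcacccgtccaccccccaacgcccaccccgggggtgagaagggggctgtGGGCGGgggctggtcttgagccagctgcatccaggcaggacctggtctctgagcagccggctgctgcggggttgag
The PLXND1 window was 87.3% G or C, with 52 CpG dinucleotides and 9 GC boxes. The SEMA4D window was 52.3% G or C, with 6 CpG, 1 GC box and 1 E box, and that of PLXNB2 was 66.7%, with 14 CpG and 1 GC box. The median over all 35116 promoters of this length in the table was 58.7%. Across the 18 windows that the table gives for the 10 genes, 14 held GGGCGG (45.0% of all promoters), 4 held CCAAT (34.6%), 4 held the ETS core GGAAGT (22.8%), 1 held CACGTG (7.26%), and none held the AP-1 motif TGACTCA (4.95%) or TATAAA (11.5%), each searched on both strands. Some of the genes gave several windows, and windows of SEMA4A and of SEMA7A partly overlap, so the 18 are not separate promoters. A match is a description of the letters and not a bound site.

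Expression is given as the normalised count of each library, which corrects for library size but not for gene length. The libraries held an estimated 50741217 to 67549182 counts, and 1 CPM corresponded to about 59.4 normalised counts. A change is the difference in log2(normalised count + 60) between group means with its standard error (SE), a scale that understates changes of low genes. The adjusted p beside it is from limma on the deposited log2 values, with Benjamini-Hochberg adjustment over all 12721 genes and a threshold of 0.05. The identity of the line was read from markers. The mantle cell lymphoma marker CCND1 averaged 2532 to 2828 CPM in the 4 groups, and SOX11 averaged 194 CPM in AU-15330 against 83.5 CPM in DMSO at 24 h, and 104 CPM against 91.8 CPM at 8 h. All 6 B cell markers were above 1 CPM in at least 1 group. Their sum was 414 to 439 CPM in AU-15330 against 1235 to 1238 CPM in DMSO at 24 h, and 503 to 553 CPM against 928 to 955 CPM at 8 h. Among 4 T cell markers measured, 2 exceeded 1 CPM in any group, and the list summed to 1.71 to 2.11 CPM in AU-15330 against 13.1 to 14.02 CPM in DMSO at 24 h, and 4.22 to 5.66 CPM against 13.3 to 13.4 CPM at 8 h. CD3G carried nearly all of that sum, while CD3D was at or below 0.1099 CPM in all group means. PECAM1, the endothelial marker in the table, averaged 1.32 CPM in AU-15330 against 6.72 CPM in DMSO at 24 h, and 3.06 CPM against 5.32 CPM at 8 h. The 4 myeloid markers measured summed to 3.47 to 4.54 CPM in AU-15330 against 1.93 to 2.39 CPM in DMSO at 24 h, and 2.42 to 2.65 CPM against 1.92 to 2.15 CPM at 8 h. Of these CD68 alone exceeded 1 CPM in a group mean, with 3.63 CPM in AU-15330 against 1.18 CPM in DMSO at 24 h. The epithelial marker EPCAM averaged 0.836 CPM in AU-15330 against 1.37 CPM in DMSO at 24 h, and 0.727 CPM against 0.988 CPM at 8 h. The part of these marker changes in the results below was not tested, and in bulk RNA fewer cells of a type and less RNA per cell cannot be told apart. No marker of NK cells, erythroid cells, megakaryocytes or neurons exceeded 1 CPM in any group mean.

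**Figure D1:**
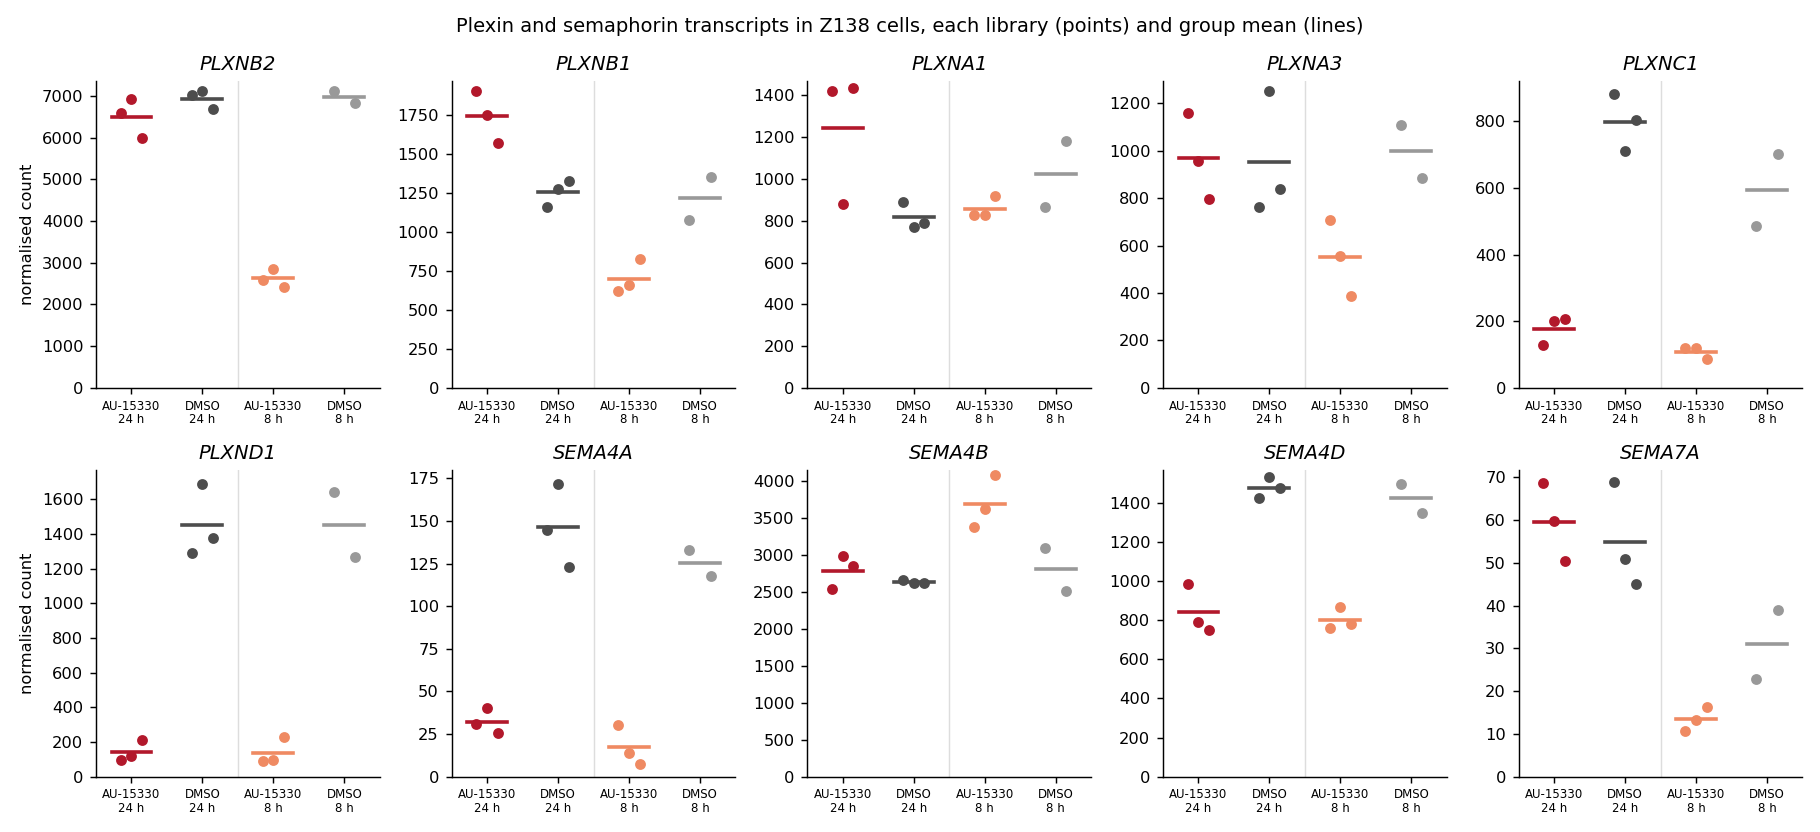
Normalised counts (vertical axes, linear, from 0) of the 10 genes in each library (points) with the group mean (lines), for AU-15330 and DMSO at 24 h and at 8 h. PLXND1 stays at or below 231 in AU-15330 and at or above 1266 in DMSO at both times, whereas PLXNB2 is at or below 2857 in AU-15330 at 8 h and at or above 5987 in all other libraries.

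At 24 h, 2 of the 10 genes were higher in AU-15330, 4 were lower and 4 did not pass the test. Over all genes tested 50.9% passed, 24.7% as higher and 26.2% as lower. At 8 h, 1 gene was higher, 7 were lower and 2 did not pass, where 44.2% of all genes passed, 22.9% as higher and 21.4% as lower. The lower genes at both times include SEMA4A, which passed the filter through its 5 DMSO libraries alone. The median change of the 10 genes was -0.03 at 24 h and -0.80 at 8 h, beside 0.0088 at 24 h and 0.020 at 8 h over all genes. The genes were chosen by name with earlier results of these libraries known, and which measured values decided the choice is not recorded, so these counts describe the genes and support nothing about the family. Values of AU-15330 and DMSO did not overlap for 5 of the 10 genes at 24 h (59.0% of all genes) and for 9 of 10 at 8 h (62.5%).

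PLXND1 and PLXNC1 were the receptors that were low after AU-15330 at both times. PLXND1 (chromosome 3, 129555175 to 129606818, minus strand; gene positions are those of GENCODE release 29 on GRCh38) is the receptor of SEMA3E and takes part in blood vessel patterning and, in mice, in thymocyte migration. It had 95.2, 117 and 211 normalised counts in AU-15330 at 24 h against 1288, 1689.6 and 1379 in DMSO at 24 h. At 8 h the counts were 88.9, 96.3 and 231 in AU-15330 against 1639 and 1266 in DMSO. The groups were far apart at both times, and replicate 3 was the highest of the AU-15330 libraries at each. The mean in AU-15330 was 9.71% of that in DMSO at 24 h and 9.54% at 8 h. The log2 change of PLXND1 was -2.94 ± 0.263 at 24 h (SE; limma adjusted p = 7.93e-07), beside -2.99 ± 0.294 at 8 h (limma adjusted p = 3.26e-06). The difference between these effects, 0.04 ± 0.394, did not pass the test (limma adjusted p = 0.967).

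PLXNC1 (chromosome 12, 94148723 to 94307675, plus strand) is the receptor of SEMA7A. It had 128, 201 and 207 normalised counts in AU-15330 at 24 h against 882, 712 and 804 in DMSO at 24 h. The 8 h counts were 119.5, 119 and 87.6 in AU-15330 against 486 and 702 in DMSO. Again no AU-15330 library reached any DMSO library of the same time. Its log2 change was -1.86 ± 0.164 at 24 h (SE; limma adjusted p = 2.02e-06), with a mean 22.3% of that in DMSO. At 8 h the change was -1.94 ± 0.184 (limma adjusted p = 1.4e-05) and the mean 18.3% of that in DMSO. The difference between the times was 0.08 ± 0.247 (limma adjusted p = 0.777). Annotated exons of PLXNC1 overlap those of CEP83 by up to 177 bases and those of AC073655.2 by up to 222 bases on the opposite strand, and whether strand was used in quantification is not stated, so its counts may hold reads of these genes.

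The B-class plexins were low at 8 h and not at 24 h. PLXNB2 (chromosome 22, 50274979 to 50307627, minus strand), a receptor of SEMA4C among others, had 6577, 6928 and 5987 normalised counts in AU-15330 at 24 h against 7013, 7109.8 and 6682 in DMSO at 24 h, and these ranges overlapped. At 8 h it had 2595, 2857 and 2418 in AU-15330 against 7120.0 and 6828 in DMSO, with a wide gap between the groups. PLXNB2 fell by 1.39 ± 0.0734 on the log2 scale at 8 h (SE; limma adjusted p = 1.02e-07), to 37.6% of the DMSO mean. At 24 h the change was -0.10 ± 0.0657, which did not pass the test (limma adjusted p = 0.21). The effect at 24 h was 1.30 ± 0.0985 above that at 8 h on the log2 scale (limma adjusted p = 1.93e-05).

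PLXNB1 (chromosome 3, 48403854 to 48430051, minus strand), the high-affinity receptor of SEMA4D, changed sign between the times. It had 1901, 1745 and 1567 normalised counts in AU-15330 at 24 h against 1159, 1273 and 1325 in DMSO at 24 h, so all treated libraries were above all vehicle libraries. The order was turned at 8 h, with 619.7, 659 and 823 in AU-15330 against 1076 and 1351 in DMSO, so all treated libraries were below. The log2 change of PLXNB1 was 0.45 ± 0.115 at 24 h (SE; limma adjusted p = 0.00344), but -0.75 ± 0.129 at 8 h (limma adjusted p = 0.00105). The difference of the 2 effects was 1.20 ± 0.173 (limma adjusted p = 0.000992). PLXNB2 and PLXNB1 were the 2 of the 10 genes whose effect passed the test of a difference between the times, both upward, where 18.5% of all genes passed and 7.54% passed upward (959 upward and 1399 downward, against 1269 and 886 on log2(CPM + 1)). Without DMSO replicate 1 at 8 h, which leaves 1 DMSO library at that time, the difference between the times was 0.98 for PLXNA1 and -0.46 for SEMA4B.

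The A-class plexins, which work with neuropilins as receptors of class 3 semaphorins, had changes whose calls depended on single libraries. The neuropilins were below the filter, with group means of 0.159 to 0.222 CPM for NRP1 and 0.030 to 0.789 CPM for NRP2. PLXNA3 (chromosome X, 154458281 to 154477779, plus strand) had 1159, 955 and 797 normalised counts in AU-15330 at 24 h, within the range of DMSO at 24 h with 764, 1250.2 and 839. At 8 h it had 706, 556 and 387 in AU-15330, all below the 1109.9 and 884 in DMSO. The log2 change of PLXNA3 was 0.04 at 24 h (limma adjusted p = 0.893), which did not pass, whereas the -0.82 ± 0.243 at 8 h did (SE; limma adjusted p = 0.0211). The 8 h result did not pass without AU-15330 replicate 3 (limma adjusted p = 0.0694) or without DMSO replicate 1 (limma adjusted p = 0.154). With DMSO replicate 2 at 24 h left out, the difference between the times passed, at 1.06 (limma adjusted p = 0.0346), against 0.86 ± 0.326 with it (limma adjusted p = 0.103). An annotated exon of PLXNA3 overlaps one of LAGE3 by 11 bases on the opposite strand.

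PLXNA1 (chromosome 3, 126988594 to 127037392, plus strand) had 1421, 879.6 and 1435 normalised counts in AU-15330 at 24 h against 891, 770.3 and 789.9 in DMSO at 24 h. Replicate 2 of AU-15330 lay within the DMSO range and the other treated libraries lay above it. At 8 h the counts were 825, 829 and 917 in AU-15330 against 865 and 1181 in DMSO, and the groups overlapped. PLXNA1 was higher by 0.54 ± 0.167 on the log2 scale at 24 h (SE; limma adjusted p = 0.0179). The 8 h value of -0.23 ± 0.187 missed the threshold (limma adjusted p = 0.367). The 24 h call was lost without AU-15330 replicate 1 (limma adjusted p = 0.0712), without AU-15330 replicate 3 (0.0704) or without DMSO replicate 2 (0.0545). The difference between the times was 0.77 ± 0.251 (limma adjusted p = 0.0563). It passed without AU-15330 replicate 2 at 24 h (limma adjusted p = 0.0037) and without DMSO replicate 1 at 8 h (0.0445), and its range over the single libraries left out was 0.56 to 0.99.

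**Figure D2:**
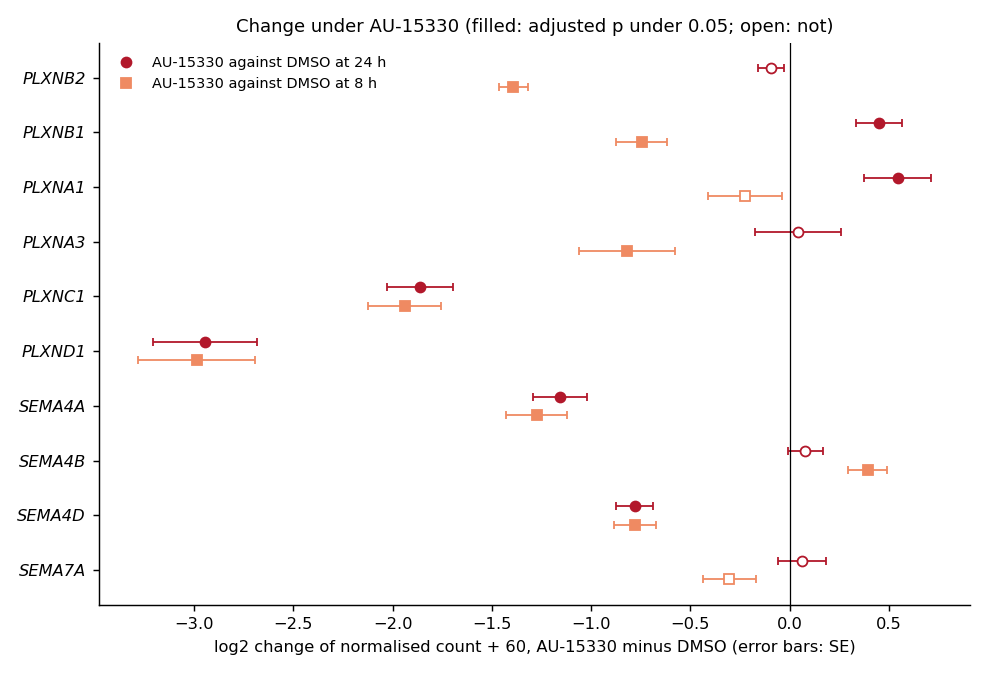
Change of each gene under AU-15330 at 24 h (circles) and at 8 h (squares), as the difference in log2(normalised count + 60) with its SE (horizontal axis), filled where the adjusted p was under 0.05. PLXND1, PLXNC1, SEMA4A and SEMA4D are filled and negative at both times, PLXNB2 at 8 h alone, and PLXNB1 is at 0.45 at 24 h and -0.75 at 8 h. SEMA4A passed the filter through its DMSO libraries alone.

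Among the ligands, SEMA4D was lower in AU-15330 at both times and SEMA4B was higher at 8 h. SEMA4A was also lower at both times, which is partly set by the filter. SEMA4D (chromosome 9, 89360787 to 89498130, minus strand) is a transmembrane protein of lymphocytes that can be shed, and binds PLXNB1 and CD72. It had 983, 789 and 748 normalised counts in AU-15330 at 24 h against 1427, 1531 and 1478 in DMSO at 24 h. The 8 h libraries had 761, 869 and 781 in AU-15330 against 1498 and 1349.6 in DMSO. Every AU-15330 library was below every DMSO library of its time. The log2 change of SEMA4D was -0.78 ± 0.0952 at 24 h (SE; limma adjusted p = 2.61e-05), and its 8 h value was also -0.78, with an SE of 0.106 (limma adjusted p = 9.58e-05). The AU-15330 mean was 56.8% of that in DMSO at 24 h and 56.5% at 8 h, and the difference between the times did not pass the test (limma adjusted p = 0.969).

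SEMA4A (chromosome 1, 156147366 to 156177752, plus strand), a transmembrane ligand that takes part in T cell priming in mice, was the least abundant of the 3 class 4 genes described, per kilobase of exon. It had 30.9, 40.2 and 25.7 normalised counts in AU-15330 at 24 h against 145, 172 and 123 in DMSO at 24 h. At 8 h the counts were 30.5, 13.7 and 7.24 in AU-15330 against 133 and 118 in DMSO. The treated libraries were below 1 CPM throughout and the vehicle libraries above it. SEMA4A thus passed the filter through DMSO alone, and the tests that follow are partly set by that. The log2 change of SEMA4A was -1.16 ± 0.136 at 24 h (SE; limma adjusted p = 5.14e-05), beside -1.28 ± 0.152 at 8 h (limma adjusted p = 6.96e-05), and the 0.12 ± 0.204 between the times did not pass (limma adjusted p = 0.697). The ratio of means without the added count was lower, at 22.0% at 24 h and 13.7% at 8 h.

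SEMA4B (chromosome 15, 90160604 to 90229679, plus strand), another transmembrane class 4 ligand, had 2545, 2983 and 2849 normalised counts in AU-15330 at 24 h, on both sides of the narrow DMSO range of 2659, 2622 and 2624. At 8 h it had 3376, 3632 and 4080.3 in AU-15330, all above the 3097 and 2519 in DMSO. SEMA4B was higher by 0.39 ± 0.0978 on the log2 scale at 8 h (SE; limma adjusted p = 0.00661). The 24 h value of 0.08 missed the threshold (limma adjusted p = 0.493). The 8 h call was lost, at 0.25 (limma adjusted p = 0.0911), without the DMSO library that has no number. The difference between the times, -0.31 ± 0.131, did not pass (limma adjusted p = 0.117), and was -0.46 (limma adjusted p = 0.0456) without DMSO replicate 1 at 8 h.

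SEMA7A (chromosome 15, 74409289 to 74433958, minus strand) is a lipid-anchored ligand that binds PLXNC1 and, in T cell contacts, an integrin. It has 2 identifiers with equal values in all 11 libraries, and the second of these is not in GENCODE release 29, so its reads may be split between copies and its level is uncertain. One entry had 68.8, 59.9 and 50.3 normalised counts in AU-15330 at 24 h against 68.9, 51.0 and 45.1 in DMSO at 24 h, which overlap. At 8 h it had 10.6, 13.2 and 16.4 in AU-15330, below the 22.9 and 39.0 in DMSO. The changes of 0.06 at 24 h (limma adjusted p = 0.702) and -0.30 ± 0.135 at 8 h (SE; limma adjusted p = 0.0549) did not pass. The 8 h change passed without DMSO replicate 1 at 8 h (limma adjusted p = 0.0415) or DMSO replicate 1 at 24 h (limma adjusted p = 0.0497). The 0.36 ± 0.181 between the times did not pass (limma adjusted p = 0.142).

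Between DMSO at 24 h and DMSO at 8 h none of the 10 genes passed limma's test, where 10.1% of all genes passed (6.56% as higher and 3.56% as lower), and 2 had an unadjusted p under 0.05. These were PLXNC1, with 799 ± 84.9 normalised counts at 24 h (SD, n = 3) and 594 ± 153 at 8 h (SD, n = 2), and SEMA7A, with 55.0 ± 12.4 at 24 h and 30.9 ± 11.4 at 8 h. Without the DMSO library that has no number, PLXNC1 passed (0.65 on the log2 scale, limma adjusted p = 0.0458). PLXND1 averaged 1452 ± 211 in DMSO at 24 h and 1453 ± 264 in DMSO at 8 h, and PLXNB2 averaged 6935 ± 224 in DMSO at 24 h and 6974 ± 207 in DMSO at 8 h.

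Levels were compared between genes per kilobase of annotated exon, which is not the effective length in the authors' quantification. In DMSO, PLXNB2 was the most abundant, with 956 ± 30.9 normalised counts per kilobase at 24 h (SD, n = 3) and 961 ± 28.5 at 8 h (SD, n = 2), and SEMA4B followed with 376 ± 3.00 at 24 h and 401 ± 58.3 at 8 h. PLXND1 came next, with 149 ± 21.6 at 24 h and 149 ± 27.1 at 8 h, though its range of error met that of PLXNB1, with 129 ± 8.70 at 24 h and 125 ± 19.96 at 8 h. Then came SEMA4D (104 ± 3.69), PLXNA3 (81.2 ± 22.3), PLXNC1 (80.8 ± 8.59) and PLXNA1 (74.7 ± 5.92) at 24 h, and SEMA4D (101 ± 7.40), PLXNA1 (93.5 ± 20.5), PLXNA3 (85.2 ± 13.6) and PLXNC1 (60.1 ± 15.5) at 8 h. Within each of these orders the ranges of mean ± SD of direct neighbours overlapped, whereas those of SEMA4D and PLXNA1 at 24 h did not. SEMA4A and SEMA7A (1 entry) were at or below 21.5. Both SEMA7A entries summed had 110 ± 24.8 normalised counts in DMSO at 24 h (SD), beside 55.0 ± 12.4 for 1 entry, so its level would be higher.

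The order differed after AU-15330. At 24 h PLXNB2 (895 ± 65.6 per kilobase) and SEMA4B (399 ± 32.0) were still on top and were followed by PLXNB1 (179 ± 17.1) and PLXNA1 (114 ± 28.9). PLXND1 at 14.5 ± 6.32 was ninth, next to SEMA7A (15.7 ± 2.42, 1 entry) and PLXNC1 (18.0 ± 4.44) and not separated from them by its SD. With both entries summed SEMA7A had 119 ± 18.4 normalised counts (SD), beside 59.7 ± 9.21 for 1 entry, so its place would be higher. At 8 h SEMA4B was the most abundant at 528 ± 50.9 per kilobase and PLXNB2 the second at 362 ± 30.4. PLXNA1 (78.3 ± 4.75) and PLXNB1 (72.0 ± 11.1) followed and did not differ beyond their SDs, and PLXND1 was seventh at 14.2 ± 8.20.

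**Figure D3:**
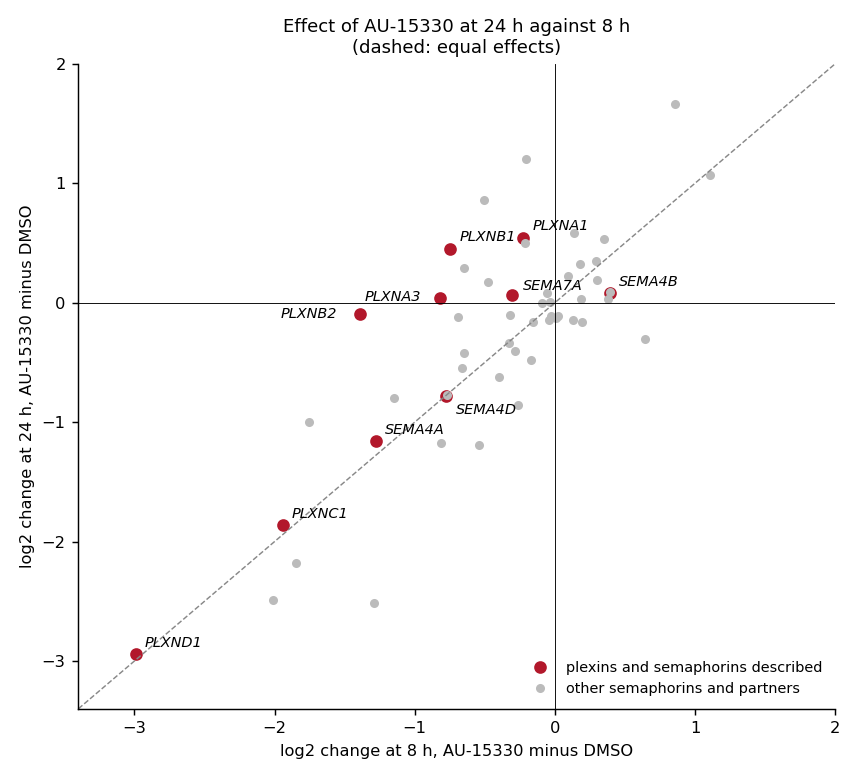
Change under AU-15330 at 24 h (vertical axis) against that at 8 h (horizontal axis), both as differences in log2(normalised count + 60), for the 10 genes (red, named) and 44 other semaphorins and partners (grey), with equal effects on the dashed line. PLXND1, PLXNC1, SEMA4A and SEMA4D lie close to the line, and PLXNB2 and PLXNB1 lie above it by 1.30 and 1.20.

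The genes of most similar pattern over the 11 libraries were sought for the gene with the lowest and the gene with the highest change at 24 h. For PLXND1 they were GAS7 (Pearson r = 0.991), RASSF5 (r = 0.990) and GNAI2 (r = 0.990) on the deposited scale. Each of these was lower at both times, by 1.45, 0.99 and 0.62 at 24 h, which follows from their choice by likeness to PLXND1. For PLXNA1 the values were lower, with CHFR at r = 0.855, ZBED5 at 0.835 and GUSBP2 at 0.819. The libraries share 4 groups, and these r values are a description of that shared layout and give no measure of chance.

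Of 16 further semaphorins listed, 13 were in the table and 5 were tested. Of these 3 were higher and none lower in AU-15330 at 24 h, and 1 was higher and none lower at 8 h, by limma's test; 3 at 24 h and 1 at 8 h had an unadjusted p under 0.05. Over all genes 24.7% were higher at 24 h and 22.9% at 8 h. SEMA4C, the ligand of PLXNB2, had 641, 571 and 572 normalised counts in AU-15330 at 24 h against 206, 218 and 250.3 in DMSO at 24 h, and 187, 265 and 253 in AU-15330 at 8 h against 290.5 and 265 in DMSO at 8 h. It was thus separated upward at 24 h, by 1.20 ± 0.115 on the log2 scale (SE; limma adjusted p = 2.78e-06), and changed by -0.21 ± 0.128 at 8 h, which did not pass (limma adjusted p = 0.241). SEMA6B, a transmembrane class 6 ligand, was higher at 24 h by 0.86 ± 0.212 (limma adjusted p = 0.00471), with 252, 230.3 and 207 normalised counts in AU-15330 against 70.4, 183 and 67.1 in DMSO. SEMA3G, a secreted class 3 ligand, was higher at 8 h by 0.64 ± 0.164 (limma adjusted p = 0.00504), with 285, 240.0 and 258 normalised counts in AU-15330 against 135 and 156 in DMSO, and at 24 h it had -0.30 (limma adjusted p = 0.123), or -0.46 without AU-15330 replicate 1, which passed (limma adjusted p = 0.0219). SEMA4F was higher at 24 h by 0.58 ± 0.192 (limma adjusted p = 0.0246), a call that was lost without AU-15330 replicate 1, DMSO replicate 1 or DMSO replicate 2 (limma adjusted p = 0.0843, 0.0696 and 0.0613). At 8 h SEMA4F did not pass with all libraries and passed without the unnumbered DMSO library (0.56, limma adjusted p = 0.049). SEMA4G passed at neither time, except at 8 h without that DMSO library (-0.81, limma adjusted p = 0.0222), and SEMA6B at 8 h, with -0.51 ± 0.237 (limma adjusted p = 0.12), passed without DMSO replicate 2 at 24 h (limma adjusted p = 0.0108). PLXNB3 was in the table below the filter, and PLXNA2 and PLXNA4 had no entry there under these symbols. SEMA3E, the ligand of PLXND1, had no entry either.

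Of the coreceptors and binding partners 6 were tested, and 3 were lower and none higher at each time, by limma's test; 3 at 24 h and 4 at 8 h had an unadjusted p under 0.05. These called shares, 50% at each time, were near the 50.9% of all genes at 24 h and 44.2% at 8 h, of which 26.2% and 21.4% were lower. CD72, an inhibitory B cell receptor that binds SEMA4D, had 201, 147 and 140.0 normalised counts in AU-15330 at 24 h against 1193, 1166 and 1179 in DMSO at 24 h. The 8 h libraries had 137.8, 158 and 143 in AU-15330 against 808 and 737 in DMSO. Its log2 change was -2.49 ± 0.103 at 24 h (SE; limma adjusted p = 1.6e-09), beside -2.01 ± 0.116 at 8 h (limma adjusted p = 9.71e-08), so the ligand SEMA4D and this partner were both lower. ERBB2, a receptor tyrosine kinase known to associate with B-class plexins, had log2 changes of -2.18 ± 0.0996 at 24 h (limma adjusted p = 4.76e-09) and -1.84 ± 0.111 at 8 h (limma adjusted p = 2.39e-07). MET, another kinase partner of B-class plexins, had -0.80 ± 0.190 at 24 h (limma adjusted p = 0.00495) and -1.15 ± 0.213 at 8 h (limma adjusted p = 0.00135). PTPRC, ITGB1 and L1CAM passed at neither time with all libraries. At 8 h PTPRC passed without AU-15330 replicate 1 (0.49, limma adjusted p = 0.0197) or without AU-15330 replicate 3 at 24 h (limma adjusted p = 0.0235), and ITGB1 passed without DMSO replicate 1 (-0.17, limma adjusted p = 0.0459).

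Among convertases and sheddases, enzymes that can cut semaphorins and plexins, 3 of 4 tested fell and none rose at each time by limma's test, and the same number had an unadjusted p under 0.05. Over all genes 26.2% were lower at 24 h and 21.4% at 8 h, and with 4 genes tested this count is a description. The proprotein convertase PCSK7 had log2 changes of -1.17 ± 0.0981 at 24 h (limma adjusted p = 8.33e-07) and -0.81 ± 0.1097 at 8 h (limma adjusted p = 6.55e-05). ADAM10, a surface protease that sheds membrane proteins, had -0.62 ± 0.0608 at 24 h (limma adjusted p = 6.39e-06) and -0.40 ± 0.0680 at 8 h (limma adjusted p = 0.000764). FURIN, a convertase of the secretory pathway, had -0.40 ± 0.0883 at 24 h (limma adjusted p = 0.00353) and -0.29 ± 0.0987 at 8 h (limma adjusted p = 0.0313), and the 8 h call was lost without AU-15330 replicate 1 (0.0964), AU-15330 replicate 3 (0.0922) or DMSO replicate 1 (0.24). ADAM17, another sheddase, passed at neither time with all libraries, and passed at 24 h without DMSO replicate 3 (-0.21, limma adjusted p = 0.0446).

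Of 29 tested genes of plexin signalling inside the cell, 6 were higher, 12 lower and 11 not called at 24 h, and 5 were higher, 10 lower and 14 not called at 8 h. That is 62.1% called at 24 h beside 50.9% of all genes, and 51.7% at 8 h beside 44.2%. PTK2 was higher in AU-15330 and the related kinase PTK2B lower. PTK2 passed the filter through its 6 AU-15330 libraries alone, with 0.433 CPM in DMSO at 24 h and 0.541 CPM in DMSO at 8 h, so its being higher is partly set by the filter. PTK2, focal adhesion kinase, had 211, 237 and 192 normalised counts in AU-15330 at 24 h against 24.0, 35.6 and 19.1 in DMSO at 24 h, and 86.5, 134 and 100.1 in AU-15330 at 8 h against 22.5 and 41.5 in DMSO at 8 h. Its change was 1.67 ± 0.138 on the log2 scale at 24 h (SE; limma adjusted p = 1.87e-06) and 0.86 ± 0.154 at 8 h (limma adjusted p = 0.00122). PTK2B, also called PYK2, had 227, 319 and 335 normalised counts in AU-15330 at 24 h against 1738, 2115 and 1975 in DMSO at 24 h, and 466, 386 and 438 in AU-15330 at 8 h against 1019 and 1258 in DMSO at 8 h. Its change was -2.51 ± 0.132 at 24 h (SE; limma adjusted p = 2.35e-08), beside -1.29 ± 0.147 at 8 h (limma adjusted p = 3.01e-05). RRAS, a substrate of the plexin GTPase-activating domain, was higher by 1.07 ± 0.0863 at 24 h and 1.11 ± 0.0965 at 8 h. MICAL1, an oxidase that disassembles actin filaments, had -1.19 ± 0.0654 at 24 h and -0.54 ± 0.0731 at 8 h. LIMK2, a kinase of cofilin, had -0.54 ± 0.0702 at 24 h and -0.67 ± 0.0784 at 8 h. RRAS, MICAL1 and LIMK2 each passed at both times, with limma adjusted p of at most 0.000173. Over the 44 tested relatives and partners together, 9 were higher and 18 lower at 24 h, which is 61.4% beside 50.9% of all genes, and 6 were higher and 16 lower at 8 h, 50.0% beside 44.2%.

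**Figure D4:**
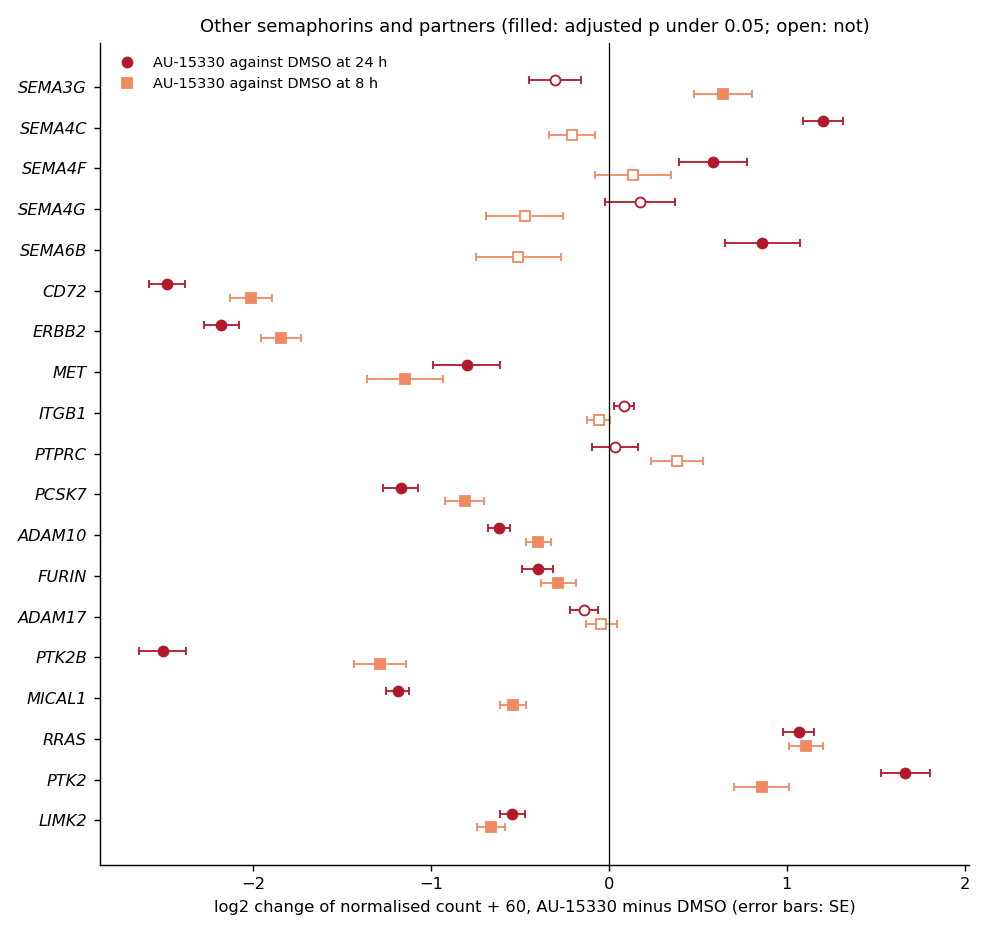
Change of the 5 other tested semaphorins and of the named coreceptors, enzymes and signalling genes under AU-15330 at 24 h (circles) and 8 h (squares), as the difference in log2(normalised count + 60) with its SE, filled where the adjusted p was under 0.05. SEMA4C is at 1.20 at 24 h and -0.21 at 8 h, CD72, ERBB2 and PTK2B are far below 0 at both times, and PTK2 and RRAS are above it. PTK2 passed the filter through its AU-15330 libraries alone.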

How the data were processed

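RNA-seq libraries of Z138 cells were analysed in 4 groups taken from the sample titles. Kits were of a poly(A) or a ribosomal depletion type and reads were 50 bp, per the labels' protocols, which do not tie a kit to a sample. Per the submitters' processing notes, the authors used the genome build GRCh38.p13, DESeq2 1.24.0, kallisto 0.46.1, Trimmomatic 0.40, FastQC 0.11.9 and R 4.3.2, for which no parameters are listed.

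The authors deposited log2 values for 20318 gene entries. Judged from the values, which share the lowest value 10.36053 in all libraries, these are normalised counts after a variance-stabilising transform rather than log CPM. The transform was inverted. Among values of 20 counts or fewer, 53.8% to 56.4% per library came within 0.02 of a whole number, so no count model was used. Of 12 value columns, 1 identical column was not used.

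The filter kept entries that reached 1 CPM in 3 or more libraries. The model in limma 3.58.1 (R 4.3.3) had 1 mean per group, a mean-dependent variance prior and 7 residual degrees of freedom. It was also run on simulated data with independent normal noise, which cannot show how well it suits these libraries. The model gave the AU-15330 effect at 24 h, that at 8 h, their difference, and the change of DMSO between times. Each adjusted p is over all genes tested. Coordinates came from GENCODE release 29 and start regions from RefSeq. Python 3.11.15 with NumPy 2.4.6, pandas 2.3.3 and Matplotlib 3.10.9 made the tables and plots.

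The 10 genes and the lists of relatives and partners were chosen with earlier results of these data known. Named were all 10, every other plexin or semaphorin that passed the filter, the 4 of each partner list with the smallest p at each time, and 3 genes of like pattern for the largest and smallest change at 24 h, with a mean of at least 5 CPM. PLXNB3, L1CAM, CEP83, AC073655.2 and LAGE3 were named in addition, and 1 signalling gene that the rule names is not reported here. Alternatives were quantile normalisation, centred library medians, log2(CPM + 1), log2(CPM + 5), no filter or one at 5 CPM, other variance priors, a fit on the groups compared, a replicate block, and leaving out each library.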

Additional observations from a re-analysis of the deposited data

Results flagged for a closer look

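The effect of AU-15330 differed between 24 h and 8 h, by limma's test of the difference itself, for these genes among others. Of the 10 genes 2 passed (20%), and of the 44 tested relatives and partners 13 passed (29.5%), beside 18.5% of all genes. The relatives and partners listed here are a part of those 13. The differences are on the log2(normalised count + 60) scale, the 24 h effect minus the 8 h effect. PLXNB2 differed by 1.30 and PLXNB1 by 1.20. Among other semaphorins SEMA4C differed by 1.41, SEMA6B by 1.37 and SEMA3G by -0.95. Among partners CD72 differed by -0.47, ERBB2 by -0.34, PTK2B by -1.22, MICAL1 by -0.65 and PTK2 by 0.81. PTK2 passed the filter through its 6 AU-15330 libraries alone, so its being higher is partly set by the filter. Each of the 5 partners moved in 1 direction at both times, with a larger change against DMSO of the same time at 24 h. The AU-15330 means at 24 h and 8 h were 163 and 146 normalised counts for CD72 and 1085 and 834 for ERBB2. They were 294 and 430 for PTK2B, 842 and 941 for MICAL1, and 213 and 107 for PTK2. In DMSO, CD72, ERBB2, PTK2B and MICAL1 were also higher at 24 h than at 8 h, by 0.57, 0.69, 0.74 and 0.50 (limma adjusted p = 0.000974, 0.000534, 0.00184 and 0.000974). The part of these vehicle changes in the differences was not tested, and time and batch cannot be told apart. Without the unnumbered DMSO library at 8 h the difference no longer passed for ERBB2 (limma adjusted p = 0.0714), SEMA6B (0.0518) and PTK2 (0.0825).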

How the results depend on the processing

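For the 10 genes, 298 recomputed changes kept their direction and their side of the threshold under other scalings, filters, priors and fits, 9 turned direction, 4 newly passed and 2 no longer passed; with 1 library left out these numbers were 322, 17, 7 and 6. Under the same scalings, filters, priors and fits 5 to 6 of the 10 were called at 24 h, 6 to 8 at 8 h and 2 to 3 for the difference between the times. Leaving out 1 library gave 2 to 4 calls for that difference (4 without DMSO replicate 1 at 8 h) and 0 to 1 for DMSO at 24 h against 8 h (1, PLXNC1, without the unnumbered DMSO library). The difference of PLXNA1 passed with library medians centred, on log2(CPM + 1), on log2(CPM + 5) and with the filter at 5 CPM (limma adjusted p = 0.0482, 0.0456, 0.0462 and 0.0495). SEMA4A and SEMA7A gave no value under that filter. Calls of relatives and partners that changed under these settings were PTPRC at 8 h, gained with medians centred (0.05) and with the filter at 5 CPM (0.0476), ITGB1 at 24 h, gained under quantile normalisation (0.0432), SEMA6B at 8 h, gained when the groups compared alone were fitted (0.0255), FURIN at 8 h, lost in that fit (0.0724), CD72 and ERBB2 between the times, lost on log2(CPM + 1) (0.0921 and 0.225), and ERBB2 on log2(CPM + 5) (0.112).

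Directions turned only in values that had not passed. The difference between the times became -0.042 for PLXND1 and -0.016 for PLXNC1 under quantile normalisation, -0.049 for PLXNC1 on log2(CPM + 5), and for SEMA4D 0.024 with medians centred, 0.058 on log2(CPM + 1) and 0.045 on log2(CPM + 5). With 1 library left out it ranged from -0.19 to 0.35 for PLXND1, -0.16 to 0.32 for PLXNC1 and -0.11 to 0.072 for SEMA4D. The 24 h change ranged from -0.089 to 0.24 for PLXNA3, -0.0020 to 0.15 for SEMA7A and -0.11 to 0.11 for PTPRC, and the 8 h change from -0.29 to 0.56 for SEMA4F, -0.17 to 0.058 for ITGB1 and -0.082 to 0.019 for ADAM17. The cause was not tested.

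Deviations of same-numbered libraries correlated at 0.0411, 0.0300 and 0.0446 between AU-15330 and DMSO at 24 h, at 0.0708, 0.0758 and 0.0880 between AU-15330 at 24 h and at 8 h, and at 0.0489, 0.134 and 0.0636 between DMSO at 24 h and AU-15330 at 8 h. In these 3 sets each library correlated best with its own number, a hint from the data and not the design. DMSO replicate 1 at 8 h gave -0.0434, 0.0078 and -0.0250 with replicate 1 of AU-15330 at 24 h, DMSO at 24 h and AU-15330 at 8 h. Since not every pair exceeded 0.1, numbers were not taken as pairs. The replicate block leaves out the unnumbered library and so holds 1 DMSO library at 8 h, assumed to vary like the other groups. PLXNA3 (limma adjusted p = 0.0545) and SEMA4B (0.226) no longer passed at 8 h. Under the block the 8 h change was 0.081 for PLXNA1 and 0.042 for ITGB1, and the difference between the times -0.13 for PLXNC1 and 0.037 for SEMA4D, and ERBB2 (0.0925) and SEMA6B (0.0599) no longer passed for that difference, while SEMA4F (0.0392) and SEMA4G (0.0245) passed at 8 h. Counts limit the lowest genes, SEMA4A and SEMA7A. SEMA7A sat near or under 1 CPM in all groups. SEMA4A was under 1 CPM in AU-15330 and averaged 2.42 CPM in DMSO at 24 h and 2.12 CPM in DMSO at 8 h.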
